A study of Danaus plexippus with 48 samples.

Results

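The genes described here are the 150 monarch butterfly brain genes that stood lowest in laboratory short days while long-day and migrant brains had nearly the same level. They were chosen by their measured group means. FPKM (fragments per transcript length and per mapped reads) was scaled by the median ratio between libraries, and a gene's level was taken as log2 of scaled FPKM plus 1. A gene was eligible with a mean scaled FPKM of 2 or more and a difference between the Migrant and long-day means below 0.5 on the log2 scale, which left 8183 of the 15130 genes in the deposited tables. The score of a gene was the smaller of its 2 differences, LP minus SP and Migrant minus SP, and the 150 eligible genes with the highest scores are the members.

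The study measured RNA in brains of wild-type Danaus plexippus around the day in 48 libraries. LP butterflies (15 h light, 9 h dark) and SP butterflies (10 h light, 14 h dark) were raised indoors from eggs of crossed wild-type adults, whereas Migrant butterflies were caught in the wild in autumn and kept with 11 h light and 13 h dark. All were held at 21 °C on their light cycle for at least a week as adults, and the pigmented photoreceptor layer of the retina was removed from each brain. Each group had 16 libraries, 2 at each of 8 zeitgeber times (ZT, counted in h from lights-on). A library holds the pooled RNA of 3 brains, and each time has 1 pool labelled female and 1 labelled male.

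Migrant libraries were prepared with a NEBNext Ultra Directional kit and LP and SP libraries with a TruSeq Stranded kit, so for the Migrant samples the kit, the origin and the group itself cannot be told apart. SP and LP share the rearing and the kit. Female pools carry replicate number 1 in LP and Migrant and number 2 in SP, and within a group the sex label and the replicate number are the same split of the libraries. Because whole brains were pooled, fewer cells of a type and less RNA per cell cannot be told apart in any result given here.

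Day length is the seasonal cue by which many insects prepare for winter, and in monarchs the shortening days of autumn accompany reproductive dormancy and the flight to overwintering sites. The insect brain holds the circadian clock cells and the neurosecretory cells that link day length to hormone release. SP days in the laboratory imitate the autumn light cycle, and Migrant butterflies had met autumn conditions outdoors before capture. The members are therefore genes for which the laboratory short-day brains, and not the autumn migrants, departed from the summer-like LP brains. The deposited tables pair no identifier with a gene name, and 0 identifiers matched the RefSeq gene table, so the members are given by identifier and position, their functions are not named, and brain markers could not be checked.

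Reads in genes ranged from 7.30 to 10.6 M per library in LP (M, 1e6 reads), from 5.47 to 9.46 M in SP and from 5.75 to 7.71 M in Migrant. The 10 genes with most reads took 6.99 to 7.64% of a library's reads in LP, 8.30 to 12.0% in SP and 5.87 to 9.17% in Migrant. Migrant ZT22 replicate 1 had the highest of these shares in its group, 9.17%, and the lowest scale factor of all Migrant libraries, 0.736, and the rhythm and overlap counts that use it are given with and without it.

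The members' levels differed between groups as the rule asked, and the sizes are given as a description. The mean scaled FPKM of a member had a median of 29.9 in LP libraries, 3.31 in SP libraries and 32.3 in Migrant libraries. The median difference was -3.03 on the log2 scale for SP minus LP, -3.02 for SP minus Migrant and 0.03 for Migrant minus LP. Over all 11642 genes with a mean scaled FPKM of 0.5 or more, the same medians were 0.02, -0.01 and -0.02. Together the members took 1.06 to 1.35% of the reads in LP libraries, 1.13 to 1.37% in Migrant libraries and 0.0376 to 0.307% in SP libraries.

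The score fell off steeply at the top and then evenly, so the 150th place marks no break. The highest score was 9.38, the median 2.92 and the quartiles 2.65 and 3.18. DPOGS200964, the last member, had a score of 2.51, and DPOGS212455, the first gene outside, also had 2.51. In DPOGS204405, the last member but one, the median scaled FPKM was 17.9 in LP, 18.4 in Migrant and 2.03 in SP. In DPOGS213544, the next gene outside, it was 9.93 in LP, 10.5 in Migrant and 0.991 in SP, so the genes on each side of the limit looked alike. Of the 10409 genes with a mean of 2 or more, 210 reached the score of the last member, and those that are not members had Migrant and LP means too far apart.

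**Figure D1:**
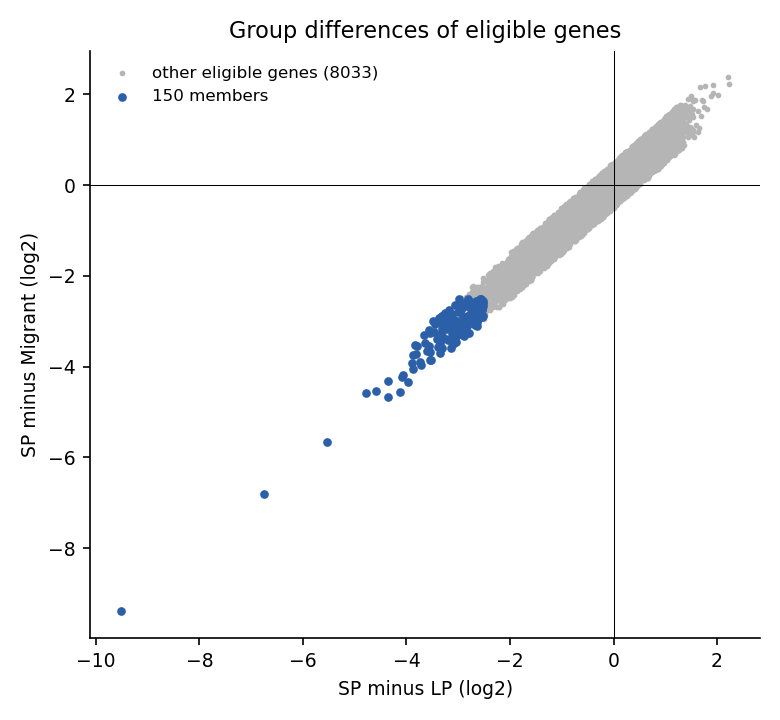
SP minus LP (horizontal, log2) against SP minus Migrant (vertical, log2) for the 8183 eligible genes, with the 150 members in blue and the other genes in grey. Members lie at the lower left by the rule, from -2.51 down to -9.52 on the horizontal axis, and the upper right holds no gene past 2.51 on both axes.

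The eligible genes spread further downward in SP than upward. A score of 1 or more, at least 2-fold lower in SP against both other groups on the scale of FPKM plus 1, was found for 1461 eligible genes (17.9%), and the same distance upward for 399 (4.88%). At a distance of 2, or 4-fold, 362 genes were lower and 2 were higher, and 0 eligible genes were higher by as much as the last member was lower. These counts use the contrasts of the rule and carry no test.

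Among members that rest on many reads, DPOGS208384 had the highest level. It lies on scaffold DPSCF300146 at 372352 to 373967. Its scaled FPKM had a lowest value of 703.5, a median of 875 and a highest of 1150 in LP. In SP the corresponding values were 17.2, 42.1 and 132. In Migrant they were 830, 1177 and 1530. Every SP library lay below every LP and Migrant library, and the highest SP value, in SP ZT4 replicate 2, was far below the lowest LP value. The LP mean was 933 ± 143, the SP mean 53.1 ± 34.6 and the Migrant mean 1174 ± 204 (SD, n = 16 each), ratios of 17.6 and 22.1 over SP.

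DPOGS215753 has the longest span of the members, 220245 bp on scaffold DPSCF300041 at 1032972 to 1253217, and overlaps another annotated gene. With 7144 reads per library in LP, 610 in SP and 4735 in Migrant it is also among the best measured. Its scaled FPKM ran from 128 through a median of 143 to 163 in LP, and from 99.4 through 118 to 133 in Migrant. In SP it ran from 5.21 through 14.8 to 39.0. Every SP value lay below every LP and Migrant value, the LP and Migrant ranges overlapped, and the SP values spread more widely relative to their median than the others. Whether strand was used in counting is not stated, so reads of overlapping genes cannot be told apart, which concerns 4 of the 150 members.

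The highest scores belong to genes with very few reads. DPOGS203705, ranked 1, spans 132 bp and had 6.85 reads per library in LP, 0.25 in SP and 8.21 in Migrant, and 12 of its 16 SP libraries were listed at 0. Its large scaled FPKM, a median of 4311 in LP, comes from dividing those few reads by a very short effective length. DPOGS206122, ranked 3, had 15.9 reads per library in LP and 13.8 in Migrant, and 13 of 16 SP libraries were listed at 0. No fold is given for either gene.

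DPOGS204821, ranked 4, on scaffold DPSCF300221 at 127908 to 128354, had 47.8 reads per library in LP and 2.00 in SP. Its scaled FPKM ran from 114 through a median of 168 to 217 in LP and from 80.1 through 146 to 283 in Migrant. In SP it ran from 0 through 5.28 to 26.3, with 4 libraries at 0. The SP libraries all lay below the others, and their order among themselves rests on few reads.

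Few reads in SP were common among the members. The median member had 210 reads per library in LP, 14.3 in SP and 187 in Migrant. In SP 65 members had under 10 reads per library, against 8 in LP and 8 in Migrant. In SP 49 members were listed at 0 in 1 library or more and 12 in 8 libraries or more. In LP and Migrant together 5 members were listed at 0 in any library. For such genes the value of a single SP library rests on few reads.

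The SP level was low at every time of day. The median SP minus LP difference over members lay between -2.74 at ZT1 and -3.32 at ZT10, and 147 of 150 members had a lower mean in SP than in LP and in Migrant at all 8 times. In 128 members every SP library was below every LP and Migrant library, which held for 15.2% of all tested genes. Without Migrant ZT22 replicate 1 the count was 137 members, beside 17.2% of tested genes. Because the rule used the group means, these counts describe the members and support nothing further.

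**Figure D2:**
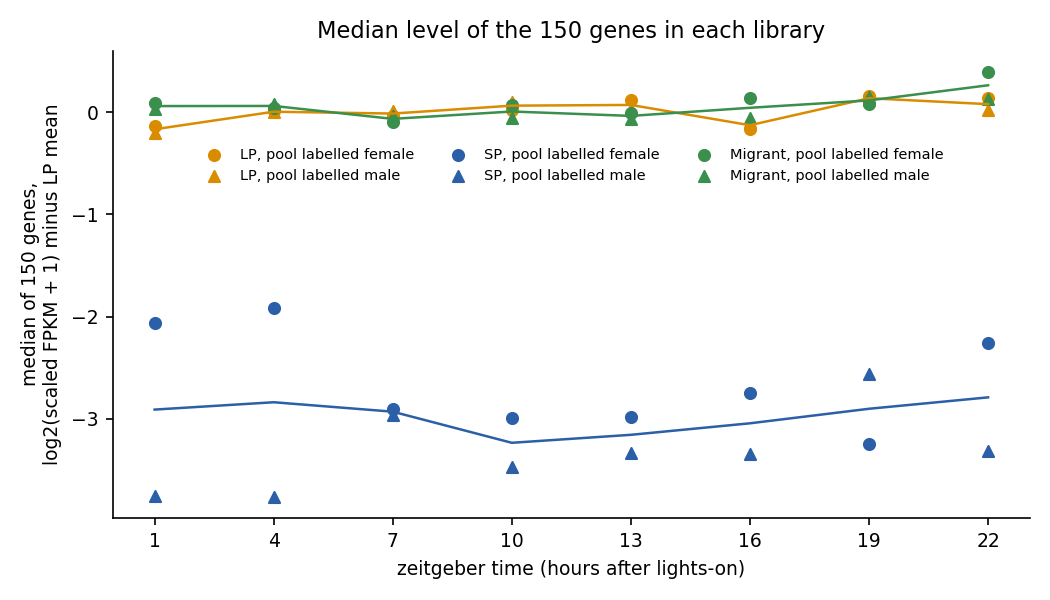
Median over the 150 members of log2(scaled FPKM + 1) minus each gene's LP mean (vertical) in each of the 48 libraries against zeitgeber time (horizontal, h), with circles for pools labelled female, triangles for pools labelled male and lines through the group means at each time. LP libraries sit between -0.20 and 0.15 and Migrant libraries between -0.09 and 0.39, whereas SP libraries spread from -3.76 to -1.92, with the widest gaps between pools at ZT1 and ZT4.

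Whether the SP difference varied over the day was tested as the interaction of group and time, which does not use the group means. It was called, at an adjusted p under 0.05 (limma), for 0 members against LP and for 0 members against Migrant, where 0% of all tested genes were called in either comparison. At an unadjusted p under 0.05 there were 4 members for SP minus LP, beside 1.30% of tested genes, and 3 members for SP minus Migrant, beside 1.27%. On simulated data the test recovered 66% of genes with a time dependence of size 1 on the log2 scale for SP minus LP and 40% for SP minus Migrant, so smaller changes over the day would often be missed. The changed genes were drawn from all tested genes, with 1 spread per gene for both groups. Members vary more in SP, with a median SD of 0.66 against 0.27 over eligible genes. Recovery for the members was not measured and may be lower.

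A rhythm of 24 h was tested within each group from its own 16 libraries. In LP 1 member was called, where 1.33% of all tested genes were called. In SP 0 members were called, where 0.515% of tested genes were, and 5 members had an unadjusted p under 0.05, beside 5.35%. In Migrant 0 members were called, where 0.404% of tested genes were. The members thus gave no more rhythm calls than tested genes at large.

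The rhythmic member in LP was DPOGS202609, on scaffold DPSCF300140 at 35049 to 45506. Its LP scaled FPKM ran from 192 at ZT1 in replicate 1 through a median of 250 to 314 at ZT13 in replicate 1. The fitted log2 amplitude was 0.27 ± 0.03 (SE), with a peak at ZT14.6, near the end of the light phase (limma, adjusted p = 0.00101). In Migrant its amplitude was 0.31 ± 0.09 with a peak at ZT12.4 (limma, adjusted p = 0.51), and in SP 0.10 ± 0.25 (limma, adjusted p = 0.987). The interaction of group and time was not called for it in either comparison (limma, adjusted p = 1 for SP minus LP and for SP minus Migrant). Its level in SP ran from 12.3 through 31.2 to 75.2 and overlapped neither LP nor Migrant, whose lowest value was 108. The call was lost under 3 of 26 alternatives.

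In Migrant libraries 33 members had an unadjusted p for rhythm under 0.05, beside 8.64% of all tested genes, without passing the adjustment. Of these 33, 25 (75.8%) had a fitted peak between ZT21 and ZT3, against 47.8% of the 1006 tested genes with such a p. The lowest adjusted p was 0.053 (limma), for DPOGS204626. Migrant ZT22 replicate 1 was often the extreme Migrant library. It was the highest for 83 members (55.7% of those with a single lowest Migrant library, beside 36.4% of eligible genes). It was the lowest for 37 (24.8%, beside 41.9%). Without that library 4 members were called, DPOGS204626, DPOGS207414, DPOGS207418 and DPOGS205084, with amplitudes of 0.37 ± 0.06, 0.39 ± 0.08, 0.15 ± 0.03 and 0.19 ± 0.04 (SE; limma, adjusted p from 0.0203 to 0.0491), beside 1.37% of all tested genes called. In that fit 35 members had an unadjusted p under 0.05, beside 14% of tested genes, and 24 of them (68.6%) peaked between ZT21 and ZT3, against 40.0% of the tested genes with such a p.

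**Figure D3:**
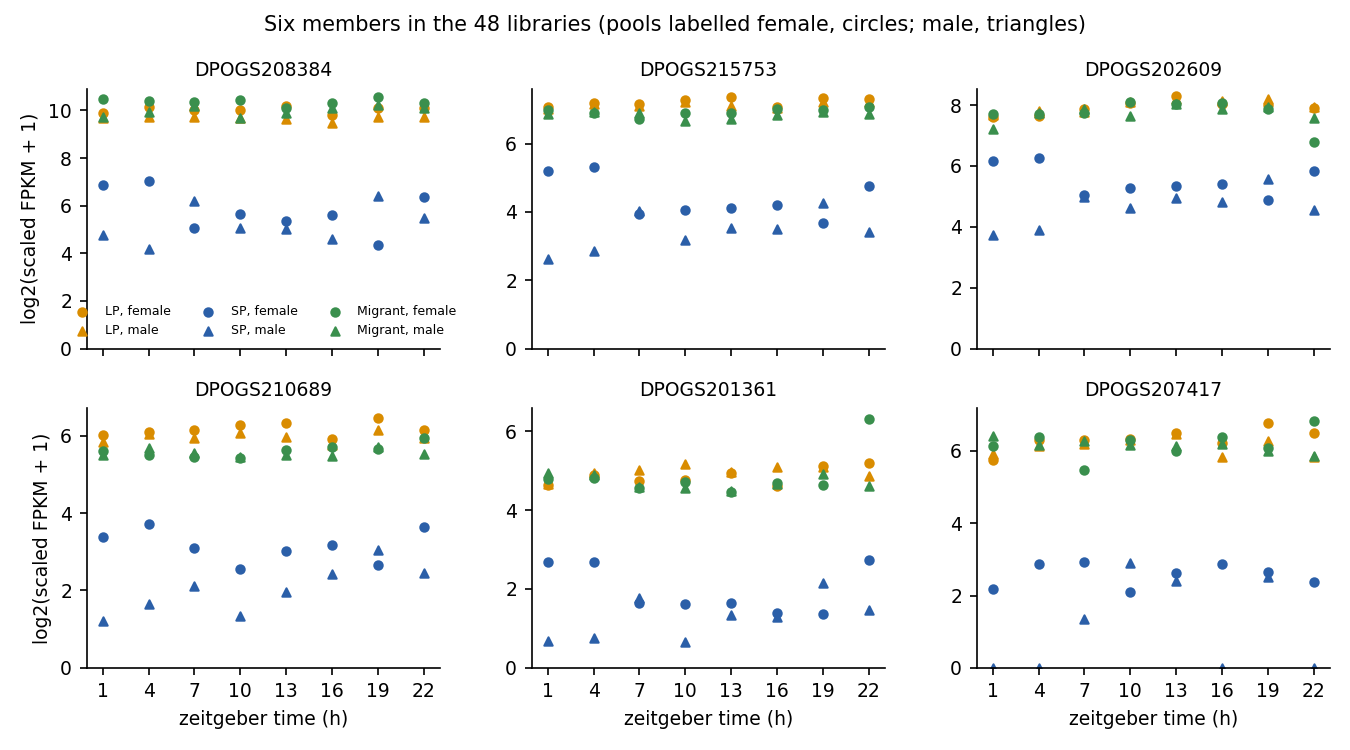
Log2(scaled FPKM + 1) of 6 named members (vertical) in all 48 libraries against zeitgeber time (horizontal, h), with colours for groups, circles for pools labelled female and triangles for pools labelled male. In each panel the SP points lie under the LP and Migrant points, and the male SP pool is usually the lower at ZT1, ZT4 and ZT22, while at ZT19 the male pool is the higher in 5 of the 6 panels.

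The SP libraries differed among themselves more than the LP libraries did, and the members moved together from library to library. The median SD of a member's log2 level was 0.19 in LP, 0.29 in Migrant and 0.66 in SP, against 0.13, 0.26 and 0.27 over eligible genes in the same order. The eligible genes are not matched to the members for reads. In SP the median was 14.3 reads per library over members and 221 over eligible genes, and the part of few reads in the SP spread was not tested. The median correlation between 2 members over the 16 libraries of a group was 0.34 in LP, 0.17 in Migrant and 0.67 in SP, while over pairs of eligible genes it was 0.01, 0.00 and 0.00. The libraries of a group share their scaling and their time of day, and these correlations are a description.

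The SP libraries with the highest member levels were SP ZT4 replicate 2 and SP ZT1 replicate 2, at -1.92 and -2.07 relative to the LP mean in the median member. Those with the lowest were SP ZT4 replicate 1 and SP ZT1 replicate 1, at -3.76 and -3.75. The high and the low libraries thus came from the same 2 times, and they differ in pool. Of the 112 members with a single lowest SP library, 69 (61.6%) were highest in SP ZT4 replicate 2, beside 17.4% of eligible genes. SP ZT1 replicate 1 was the lowest for 43 (38.4%, beside 18.7%) and SP ZT4 replicate 1 for 36 (32.1%, beside 14.0%). These libraries were thus often extreme for eligible genes too, and in either direction: SP ZT1 replicate 1 was the highest for 24.7% of eligible genes and for 0 of these members.

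Values of library composition differed between these high and low libraries. The 10 genes with most reads took 8.47% of reads in SP ZT4 replicate 2 and 8.30% in SP ZT1 replicate 2, but 11.9% in SP ZT4 replicate 1 and 12.0% in SP ZT1 replicate 1. Genes above 0 numbered 12638 and 12590 in the former libraries and 12446 and 12278 in the latter. At each SP time, the pool with the larger share of reads in its 10 top genes had the lower member level. At ZT19 this was the female pool, at 9.98% against 8.92%, and at the other times the male pool. Across times the SP libraries did not all follow. SP ZT13 replicate 1 had the most genes above 0 in SP, 12652, at a member level of -3.33 and with 8.69 M reads in genes. SP ZT22 replicate 2 had 12427 at a level of -2.26, with 5.47 M reads in genes and a share of 8.43%. In SP ZT7 replicate 1 the 10 genes took 11.1% of reads at a level of -2.96. The part of library composition in the members' levels was not tested. LP libraries lay at 6.99 to 7.64% and Migrant libraries other than ZT22 replicate 1 at up to 6.91%, so the SP libraries with high member levels were also among those nearest to the other groups in this share.

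Within each group the pools labelled male and female were compared at matched times, a contrast that leaves the group means of the rule aside. In SP the male minus female difference had a median of -0.67 over members and -0.01 over all tested genes, and 145 of 150 members were lower in the male pools, beside 51.2% of tested genes. Few of these differences passed the adjustment: 4 members were called, all lower in male pools, beside 3.99% of tested genes called lower. At an unadjusted p under 0.05 there were 79 members (52.7%), all lower, beside 22.7% of tested genes lower and 45.6% in either direction, so many tested genes differed between the SP pools, but about equally often up and down.

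The 4 called members were DPOGS209019, DPOGS210689, DPOGS213813 and DPOGS207413. In DPOGS209019 the SP male pools ran from 0.817 through a median of 1.502 to 2.97 and the SP female pools from 2.67 through 4.002 to 9.70 scaled FPKM, lower in the male pool at 7 of 8 times. The difference was -1.14 ± 0.25 (SE) on the log2 scale (limma, adjusted p = 0.0429). The pools barely overlapped, and the highest female value, in SP ZT4 replicate 2, was still below the LP values, which began at 22.5. In Migrant its lowest value was 3.43, in Migrant ZT22 replicate 1, which fell within the SP range.

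DPOGS210689, on scaffold DPSCF300013 at 751585 to 778063, gave SP male pools from 1.31 through 3.10 to 7.29 and SP female pools from 4.89 through 7.78 to 12.2. It was lower in the male pool at 7 of 8 times. The difference was -1.13 ± 0.26 (limma, adjusted p = 0.0429). In LP it was also lower in the male pools, at all 8 times, with a difference of -0.21 ± 0.04 (limma, adjusted p = 0.0079). In Migrant the difference was -0.07 ± 0.08 (limma, adjusted p = 0.95). DPOGS213813 and DPOGS207413 differed by -0.64 ± 0.16 and -0.87 ± 0.22 in SP (limma, adjusted p = 0.0478 and 0.0482), but both rest on few reads: DPOGS213813 had 9.03 reads per SP library, and DPOGS207413 had 1.01, with 7 of 16 SP libraries at 0.

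The pool difference in SP was not the same at each time. Its median over members was -1.71 at ZT1, -1.83 at ZT4, -0.08 at ZT7, -0.58 at ZT10, -0.30 at ZT13, -0.53 at ZT16 and -0.999 at ZT22. At ZT19 it ran the other way, 0.68, and 13 of 150 members were lower in the male pool there, against 143 at ZT1 and 144 at ZT4. The median over all tested genes lay between -0.04 and 0.01 at these times, where the scaling centres it. The pool differences of 2 members correlated at a median of 0.72 over the 8 SP times, and at 0.18 in LP and 0.09 in Migrant, as a description.

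**Figure D4:**
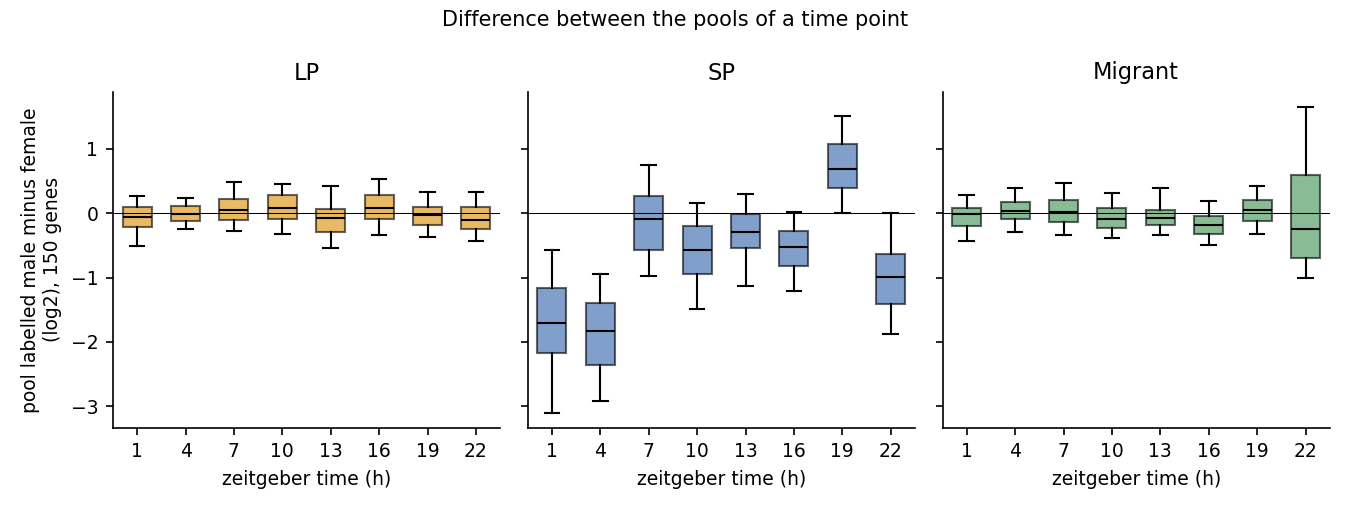
Difference between the pools labelled male and female (vertical, log2) over the 150 members at each zeitgeber time (horizontal, h) in LP, SP and Migrant, with boxes from the lower to the upper quartile, a line at the median and whiskers from the lowest to the highest decile. SP boxes sit lowest at ZT1 and ZT4, with medians of -1.71 and -1.83, and above 0 at ZT19, while the LP medians and the Migrant medians lie near 0.

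The number of called members in SP turned on single libraries. Without both ZT19 libraries 100 members were called, all lower in the male pools, beside 25.9% of tested genes called lower and 50.4% called in either direction. Leaving out SP ZT19 replicate 1 gave 99 and SP ZT19 replicate 2 gave 100. Leaving out any single SP library of another time gave 0 called members, while 41 to 89 had an unadjusted p under 0.05, and the calls over all tested genes dropped as well, to between 0.438 and 0.79%. Leaving out ZT19 was chosen after its values were seen. At ZT19 the female pool also had the larger share of reads in its 10 top genes, and at the other SP times the male pool. With 1 pool of each label at a time, several readings cannot be told apart. These are a swap of labels, a difference between the pools, their library composition and an effect of the time of day.

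In LP the members' pool differences had a median of -0.04 and went in both directions. In LP 33 members were called, 17 higher and 16 lower in male pools, beside 18.6% of tested genes called, 9.94% higher and 8.7% lower. The count was 17 without any 1 of the ZT13 or ZT16 libraries, 21 or 22 without any 1 of the ZT7, ZT10, ZT19 or ZT22 libraries, and 0 with all 48 libraries in the fit, where 1.13% of tested genes were called. DPOGS208384, described above for its level, was lower in the LP male pools at all 8 times, with a difference of -0.37 ± 0.03 (limma, adjusted p = 0.000384). In Migrant it was also lower at all 8 times, -0.39 ± 0.09, without passing the adjustment (limma, adjusted p = 0.335). DPOGS206146 differed by -0.68 ± 0.10 in LP (limma, adjusted p = 0.00378). DPOGS205084 and DPOGS201387 were higher in LP male pools, by 0.38 ± 0.06 and 0.21 ± 0.04, at all 8 times (limma, adjusted p = 0.00507 and 0.00707).

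In SP the pools labelled male had the lower mean also for DPOGS205084 and DPOGS201387, at -0.65 ± 0.26 and -0.83 ± 0.27 (limma, adjusted p = 0.0834 and 0.0603). By sex label the estimates of these genes thus had opposite signs in LP and SP. By replicate number they had the same sign, with replicate 2 having the higher mean in both groups. DPOGS208384 and DPOGS206146 went the other way. Their male pools had the lower mean in SP as in LP, at -0.57 ± 0.49 and -0.91 ± 0.44 in SP (limma, adjusted p = 0.37 and 0.134). By replicate number the estimates of DPOGS208384 and DPOGS206146 thus had opposite signs in LP and SP. Sex label and replicate number cannot be told apart here. In Migrant 0 members were called, beside 0.0773% of tested genes, and 8 had an unadjusted p under 0.05, beside 5.36%. The difference of the pool difference between groups was tested after the values were seen. It was called for 29 members (19.3%) between SP and LP, all lower, beside 13.3% of tested genes called lower and 28.1% called in either direction. Between SP and Migrant it was called for 1 member, DPOGS210689, beside 3.27% of tested genes. Without ZT19 the counts were 91 (60.7%) and 49 members (32.7%), all lower. Called lower were 2803 and 1261 of the 11642 tested genes, and 46% and 19.7% were called in either direction. This test follows the sex label, whose replicate numbers are reversed in SP. A difference between replicate numbers shared by the groups cannot be told apart from a sex difference that varies between them.

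The members also differ from eligible genes in their place and size in the genome, which the rule did not use. The distance from a member to its neighbouring genes had a median of 10495 bp, against 2548 bp over eligible genes, and 45 of the 144 members with a known distance were farther than 17892 bp, the distance that 10% of eligible genes exceed. The span on the scaffold had a median of 4810 bp against 3542 bp, and 32 members had more than 14504 bp, which 10% of eligible genes exceed. The effective transcript length implied by reads and FPKM had a median of 685 bases against 1499. Short transcripts were frequent among them, with 47 members under 249 bases, as 10% of eligible genes are.

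Without those short genes the members had about the transcript length of other genes and kept the longer spans and wider gaps. For those 103 members the median effective length was 1750 bases against 1681 over the remaining 7364 eligible genes. Their median span was 7816 bp against 3974 bp, and their median gap 9363 bp against 2497 bp. Gene spans and gaps follow the annotation of the deposited tables, and genes missing from it would widen a gap. A short effective length also makes scaled FPKM large for few reads, so the short members could pass the minimum level with few reads.

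**Figure D5:**
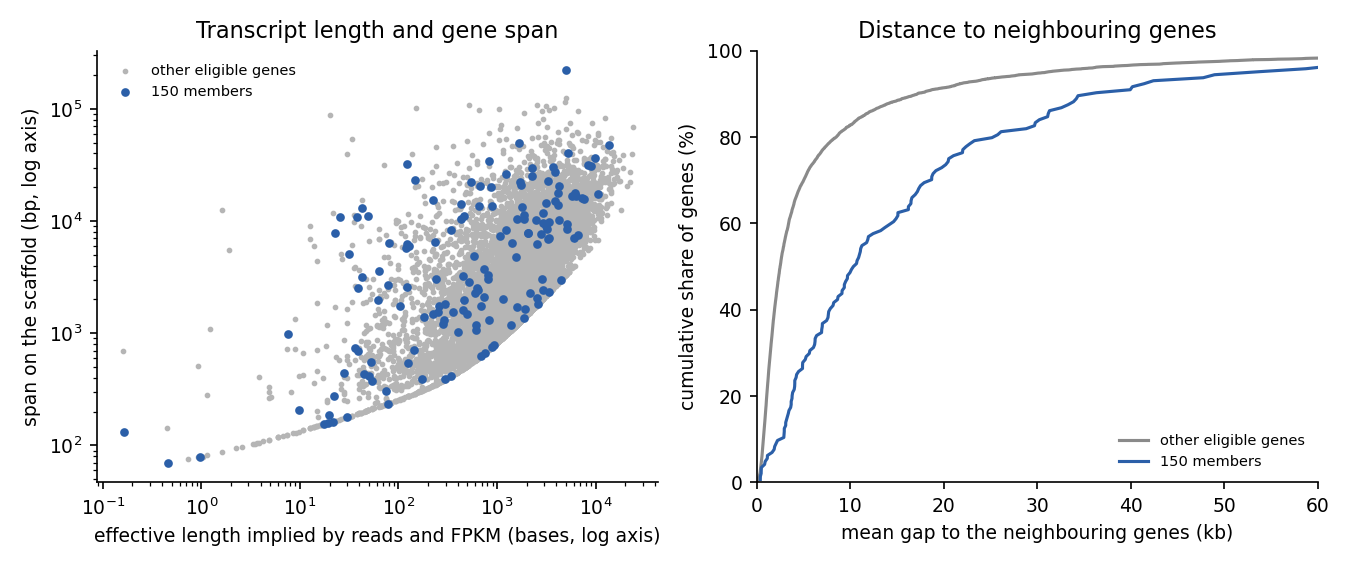
Left, span on the scaffold (vertical, bp, log axis) against effective transcript length (horizontal, bases, log axis) for the 150 members in blue and the other eligible genes in grey. Right, cumulative share of genes (vertical, %) against the mean gap to neighbouring genes (horizontal, kb), where the members' curve runs to the right of the other eligible genes, with medians of 10495 and 2548 bp for members and eligible genes.

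Some members lay beside each other, and the same count was not made for other sets of genes. They were on 94 scaffolds, 62 of which held 1 member and 2 of which held 5. In gene order 24 pairs of members were direct neighbours, which involved 44 members, with a median gap of 12395 bp and a range from 124 to 91954 bp. The 219 tested neighbours that are not members had a median SP minus LP of -0.46, and 37.9% of them were lower by 1 or more, against 17.9% of the 11273 other tested genes.

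Scaffold DPSCF300087 carried 5 members among 22 eligible genes, with DPOGS207414, DPOGS207416, DPOGS207417 and DPOGS207418 next to each other in gene order between 67428 and 205201. The eligible genes of this scaffold had a median SP minus LP of -0.36. DPOGS207417, at 150699 to 153395, ran from 52.3 through 76.9 to 109 scaled FPKM in LP, from 0 through 4.22 to 6.60 in SP and from 43.3 through 71.1 to 113 in Migrant. DPOGS207416 had medians of 28.5 in LP, 33.0 in Migrant and 1.49 in SP. Both rest on under 3 reads per SP library, with 4 SP libraries each at 0, while their neighbour DPOGS207418, with 240 reads per SP library, had means of 18.8 ± 2.43 in LP, 19.6 ± 4.23 in Migrant and 2.43 ± 1.01 in SP (SD, n = 16). Near-identical copies among these neighbours could not be checked without sequence.

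Scaffold DPSCF300083 also carried 5 members, among 28 eligible genes whose median SP minus LP was -1.38, lower than the median of 0.02 over all eligible genes. DPOGS201361, at 366718 to 387773, ran from 23.6 through 29.7 to 35.4 scaled FPKM in LP and from 0.578 through 1.91 to 5.61 in SP. In Migrant it ran from 20.9 through 24.6 to 77.6, the highest being Migrant ZT22 replicate 1. DPOGS201383, at 163631 to 168373, had medians of 30.04 in LP, 22.2 in Migrant and 2.60 in SP. The SP libraries of both genes lay below all LP and Migrant libraries.

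A pair of genes outside the members followed the members' mean profile most closely over the 48 libraries. DPOGS203288 and DPOGS203769 each had a Pearson correlation of 0.996 with it, as a description, with scores of 2.10 that placed them at ranks 313 and 314. The median scaled FPKM of DPOGS203288 was 9.16 in LP, 9.67 in Migrant and 1.29 in SP. The correlation includes the group difference that the rule used, and these genes were picked for it, so nothing further is read from it.

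The spread within SP also differed between members. DPOGS212572 had the smallest SD of log2 level over the SP libraries, 0.27, with scaled FPKM from 0.240 through 0.475 to 1.38 in SP and from 6.85 through 8.38 to 9.91 in LP. At such a low level a pseudocount of 1 compresses the spread. The largest SD, 4.37, was that of DPOGS215151, the shortest member at 70 bp, with 0.937 reads per SP library and 6 SP libraries at 0.

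Migrant and LP means were kept within 0.5 by the rule, and 63 members still passed a test of their difference (limma), 39 higher and 24 lower in Migrant, beside 58% of all tested genes called, 27.3% higher and 30.8% lower. The rule used this contrast, and nothing is read from the count. Without scaling, the median Migrant minus LP difference over members was -0.35, where that over all tested genes was -0.38, so the near-equality of the LP and Migrant levels is relative to the scaling, while the low SP levels were present with it and without it, at medians of -3.03 and -3.08 for SP minus LP.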

How the data were processed

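Poly(A) RNA of pooled brains was read as 50-base single reads, per the labels' protocols. Per the submitters' processing notes, reads were handled with CASAVA 1.8.2, TopHat2 and Cufflinks; no genome build is stated there. The deposited values are FPKM made by the authors, with confidence limits and positions for 15130 genes. Reads per gene were recovered from the upper confidence limit and used for depth and effective length only, because 82.5 to 85.1% of values under 30 reads lay within 0.05 of a whole number and a count test was therefore not run. FPKM was divided by median-ratio factors over the 10595 genes above 0 in all 48 libraries, and log2 (value plus a pseudocount of 1) was analysed.

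Genes with a mean scaled FPKM of 0.5 or more (11642) were tested with limma 3.58.1 in R 4.3.3 (trend, robust, Benjamini-Hochberg over all tested genes, threshold 0.05), each group's own 16 libraries for rhythm (a 24 h cosine and sine) and for pool differences (a mean for each time), and the libraries of both groups for time dependence (7 terms). Replicates are pools of different brains. For time dependence, p-values measure against the spread between the pools of a time, which includes the sex label. For pool differences they measure against the change of the male minus female difference over the times. For rhythm they measure against all spread around the cosine, including pool differences and other changes over time. Tables and plots used Python 3.11.15, pandas 2.3.3, numpy 2.4.6 and matplotlib 3.10.9. On simulated data of 11642 genes, effects of size 1 were recovered for rhythm in 96% (LP), 80% (SP) and 87% (Migrant) of the changed genes, and for pool differences in 92%, 60% and 77%. The changed genes were drawn from all tested genes, so these shares do not measure recovery for the members.

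The members, the lists and the tests were chosen with earlier results of these data known. Named genes are the 2 members of highest score with 10 or more reads in LP and Migrant, the 2 of highest LP level, those at the limit, up to 2 called members per test and direction, 2 per scaffold with most members, the longest and shortest span (the tables give no transcript length), the extremes of spread in SP, and the 2 closest profiles outside. The other called genes, up to 4 per test, the neighbours on a scaffold, the test of pool differences between groups and the counts without ZT19 or Migrant ZT22 replicate 1 were added after values were seen. Gene lists by name could not be run. Alternatives were other scaling, pseudocount, filter, fit and rhythm models, a replicate block, and each library left out.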

Additional observations from a re-analysis of the deposited data

Results flagged for a closer look

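The male minus female difference of the members was tested for a difference between groups, and it differed in SP from LP for 29 members and in SP from Migrant for 1 member, DPOGS210689 (limma, adjusted p under the threshold). All 29 had the lower value in SP. Of all tested genes 13.3% were called lower in the first comparison, beside 19.3% of members, and 28.1% were called in either direction. In the second 3.27% of tested genes were called in either direction. Without ZT19 the counts were 91 (60.7%) and 49 members (32.7%), all lower. Called lower were 2803 and 1261 of the 11642 tested genes, and 46% and 19.7% were called in either direction. In DPOGS210689 the SP difference was 1.06 lower than the Migrant difference on the log2 scale, an estimate of -1.06 (limma, adjusted p = 0.0442). The test was chosen after the SP values were seen. It follows the sex label, whose replicate numbers are reversed in SP. A difference between replicate numbers shared by the groups would also be called, and the test cannot tell these apart.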

How the results depend on the processing

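Membership was shared by 140 to 150 of 150 genes when a library was left out, by 90 with FPKM as deposited and by 96 with Migrant minus LP below 0.25. The other choices kept 113 to 150. The median SP minus Migrant was -3.60 with a pseudocount of 0.1, and the median Migrant minus LP -0.35 as deposited.

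Called members for the pool difference in SP numbered 0 with no filter (1.91% of all genes tested), 7 with a mean of 2 or more (16.3%), 110 with all 48 libraries in the fit (43%), 0 without ZT22 (0.481%) and 100 without ZT19 (50.4%), and 0 to 100 when a library was left out. For LP they numbered 0 with all 48 libraries (1.13%), 21 without ZT22 (12.1%), and 17 to 38 when a library was left out; for Migrant this was 0 to 0. Between SP and LP 91 members were called without ZT19 (46% of genes in either direction), and between SP and Migrant 49 (19.7%). Rhythm in LP was called for 0 members with all 48 libraries, with light against dark hours and with an F-test over times, and rhythm in SP for 2 with all 48. Rhythm in Migrant was called for 1 as deposited, with quantile normalization, with a mean of 2 or more and with the replicate block, and for 0 to 4 when a library was left out. Replicate numbers mark sex labels, not paired animals; with the replicate block rhythm in LP and SP stayed at 1 and 0, and time dependence at 0. The causes of these changes were not tested. Leaving out a library gave 1 for rhythm in LP, 0 for rhythm in SP and 0 for time dependence. No called result changed direction; the median Migrant minus LP turned from 0.03 to the -0.35 above. Of the named genes' calls, 180 results kept their side of the threshold and 64 lost it, among them the SP pool calls of DPOGS209019 and DPOGS210689, each lost under 16 of 25 alternatives, with adjusted p (limma) from 0.000979 to 0.114 and from 7.59e-05 to 0.114. Few reads limit the members' SP values most, as genes low in SP were chosen: 65 had under 10 reads per library there.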
